A study of Mus musculus with 5 samples.

Results

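The cells described here are CD8 T cells of the mouse brain in which transcripts of the chemokine receptor gene Cxcr6 were counted. They were chosen by their counts of Cd8a, Cd8b1, Cd4 and Cxcr6, so these 4 genes are described and not tested. A well labelled as holding 1 cell, with at least 400 transcript counts outside the spiked-in control RNAs and at most 30% of these from mitochondrial genes, was kept. A kept well belonged to the set when it held at least 1 count of Cd8a or Cd8b1, none of Cd4 and at least 1 of Cxcr6. In all, 219 of 1482 kept wells met this rule (14.8%), which is 34.8% of the 630 kept wells with Cd8a or Cd8b1 and without Cd4. The other 411 of those 630 wells, which held no count of Cxcr6, are the comparison and are called other CD8 wells below.

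The study asked how glucocorticoid receptor in the choroid plexus bears on T cells that enter the brain after psychological stress. All 5 mice were of the strain Grl1loxP/loxP, in which the glucocorticoid receptor gene is flanked by loxP sites, so the controls carried the floxed allele too. TAT-CRE recombinase was injected into the cerebral ventricles of 3 mice (TAT-CRE 207 and 208, both 18 weeks old, and TAT-CRE 215, 19 weeks old), and PBS into the other two (PBS 216, 19 weeks, and PBS 218, 16 weeks, which the labels call sham). Every mouse was then given foot shocks, 14 of 1 mA on day 1 and 5 of 0.7 mA on day 2. At day 14 after stress, CD45+CD11b-TCRβ+ cells were sorted from brain parenchyma without the choroid plexus, 1 cell to a well. No unstressed mouse was among these samples. TAT-CRE is a protein put into the ventricles, and which cells it recombined is not given in the labels. Whether each library came from 1 animal is not stated beyond its replicate number, so the p-values measure the spread between these 5 libraries.

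CXCR6 is the receptor for the chemokine CXCL16, which exists both as a membrane-bound and as a shed form. Among CD8 T cells it marks effector and tissue-resident populations, and it is low on naive cells that recirculate through lymph nodes. Such tissue cells are known for granzymes, the chemokine CCL5 and the transcription factor ID2, whereas naive and central memory cells are known for CCR7 and TCF1 (Tcf7).

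Each library was 1 plate and 1 amplification batch with 1 replicate number, called a mouse here, so plate and mouse cannot be told apart. Total counts of unique transcript molecules (UMIs) ran from 395090 to 857632 per library. TAT-CRE 208 had the lowest total and stood apart: it gave 12 of the 219 Cxcr6 CD8 wells, with a median of 26.9% of their UMIs from ribosomal RNA genes against 39.6% to 46.3% in the other 4 libraries. No well name was shared between libraries, and the same 384 cell barcodes were used in every plate. Levels are given as CPM, the UMIs of a gene summed over the wells of a class in 1 mouse and scaled to 1000000 UMIs outside ribosomal RNA genes and control RNAs.

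The labelled cell type was checked against marker genes. The 9 T cell markers, among them Cd3d, Cd3e and Trbc2, all had UMIs in Cxcr6 CD8 wells and summed to 7935 to 10950 CPM across the 5 mice, as in the other CD8 wells (7866 to 9487 CPM). Markers of most other cells were scarce. NK cell markers summed to 0 to 320.1 CPM, with Ncr1 and Tyrobp at 0. Gamma delta or type 17 T cell markers summed to 167 to 708 CPM, with Il17a, Il23r and Blk at 0, and regulatory T cell markers to 83.5 to 384 CPM. The gamma delta or type 17 list was led by Tcrg-C2 and lay above the other CD8 wells in 4 of 5 mice. CD4 T cell markers other than Cd4 summed to 0 to 253 CPM. Monocyte or macrophage markers summed to 0 to 470 CPM, all of it Ccr2. B cell markers (0 to 291 CPM, Cd79a and Cd79b at 0) and microglia markers (0 to 286 CPM, P2ry12 and Tmem119 at 0) were as low. Oligodendrocyte markers reached 501 CPM in PBS 218 with Mog, Mag and Mobp at 0, endothelial markers 506 CPM in TAT-CRE 207, and neutrophil and neuron markers were at 0 in all 5 mice. The cells thus carried T cell transcripts, as sorting on TCRβ would select, and their Cd8 and Cxcr6 counts were set by the rule. The 4 CD8 T cell markers outside the rule, Rgs1, Gzmk, Nkg7 and Cst7, summed to 1537 to 3605 CPM. They lay above the other CD8 wells (1803 to 2538 CPM) in 3 of 5 mice.

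The rule fixed the Cxcr6 and Cd8 counts, which are given as a description. Cxcr6 (GRCm38 chromosome 9, 123806475 to 123811760, plus strand) overlaps Fyco1, a gene annotated on the other strand, and the strand setting of the counting is not given in the sources used here. The 219 wells held 1052 Cxcr6 UMIs, with a median of 3 and a maximum of 39 per well. A single UMI put 65 wells in the set, 30 wells had 2 and 124 had 3 or more, so most wells did not rest on 1 molecule. Per mouse the median was 3 in TAT-CRE 207, 6.5 in TAT-CRE 208, 3 in TAT-CRE 215, 2 in PBS 216 and 3.5 in PBS 218, and the ranges of wells overlapped in all of them.

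**Figure D1:**
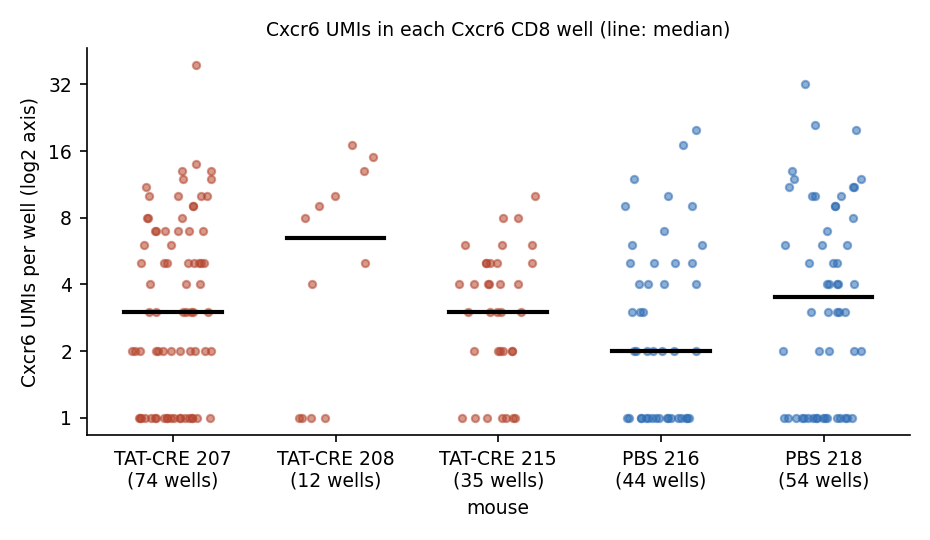
Cxcr6 UMIs in each of the 219 Cxcr6 CD8 wells (vertical axis, log2 scale) by mouse (horizontal axis), with TAT-CRE mice in red and PBS mice in blue and a line at each median. Wells with 1 UMI form the lowest row in every mouse, and 124 wells lie at 3 or above.

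Cd8a (chromosome 6, 71373427 to 71379173), the alpha chain of the CD8 coreceptor, was counted in 157 of the 219 wells (71.7%), and Cd8b1 (chromosome 6, 71322788 to 71337494), the beta chain, in 146 (66.7%). Both chains were counted in 84 wells, and 42 wells rested on a single UMI of either. Close to the limits of the rule, 2 wells of the set had under 500 UMIs, and no well with 300 to 400 UMIs met all else. The 24 wells with 25% to 30% mitochondrial UMIs and the 9 left out at 30% to 35% both had a median of 3 Cxcr6 UMIs. The 10 wells left out only for a Cd4 UMI had a median of 3 as well. All of these wells were required to hold Cxcr6, so the medians only describe them.

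A UMI in a well can come from free RNA. Of 20 wells labelled as empty, 2 held a Cxcr6 UMI (10%, at a median of 40 UMIs per well). Among 85 kept wells with a Cd4 UMI and none of Cd8a or Cd8b1, 24 did (28.2%, exact 95% interval 19.0% to 39.0%, median depth 1717 UMIs), against 433 of all 1482 kept wells (29.2%, median depth 1662.5). A Cxcr6 UMI was thus not particular to wells with Cd8. Intervals cover counting error only.

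Cxcr6 CD8 wells made up 42.5% of the CD8 wells of TAT-CRE 207 (74 wells), 15.8% in TAT-CRE 208 (12 wells), 28.0% in TAT-CRE 215 (35 wells), 32.8% in PBS 216 (44 wells) and 44.6% in PBS 218 (54 wells). PBS 218 was the highest and TAT-CRE 208 the lowest, and the groups overlapped. The means were 28.8 ± 13.4% (SD, n = 3) in TAT-CRE and 38.7 ± 8.34% (SD, n = 2) in PBS mice, a difference of -9.96 percentage points (two-sided exact permutation p = 0.4, where 3 mice against 2 cannot go below 0.1). Without TAT-CRE 208 the difference was -3.47 points. A well with more UMIs is likelier to show a Cxcr6 UMI, and depth differed, with TAT-CRE 208 the shallowest and PBS 218 the deepest library. PBS 216 had a higher share than TAT-CRE 215 at a lower median depth of kept wells (1410 against 1600.5 UMIs). With each well thinned to 400 UMIs the shares were 26.1%, 10.4%, 11.1%, 14.6% and 27.9% in the same order of mice. The ranking of the mice was unchanged, and the difference was -5.42 points (exact permutation p = 0.5). The part of depth in the shares was not tested beyond this thinning. Of all kept wells, Cxcr6 CD8 wells made up 23.8% in TAT-CRE 207, 3.96% in TAT-CRE 208, 11.7% in TAT-CRE 215, 14.9% in PBS 216 and 19.7% in PBS 218. That difference of -4.12 points (exact permutation p = 0.7) turned to 0.483 points without TAT-CRE 208. Shares of sorted cells do not give cell numbers in the brain.

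**Figure D2:**
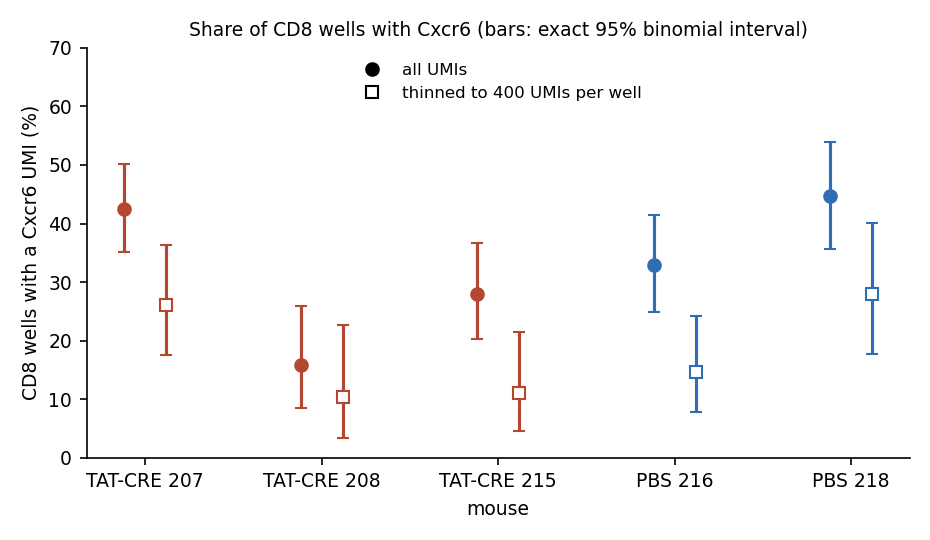
Share of CD8 wells with a Cxcr6 UMI (vertical axis, percent) in each mouse, over all UMIs with exact 95% binomial intervals (filled) and with wells thinned to 400 UMIs (open). TAT-CRE 208 is lowest at 15.8%, and TAT-CRE 207 and PBS 218 are highest before and after thinning.

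The main comparison set Cxcr6 CD8 wells against other CD8 wells of the same mouse. No gene passed. By CPM, Id2, S100a4 and Ccl5 were each higher in Cxcr6 CD8 wells in 5 of 5 mice, and the share of all genes with this pattern was not counted. The log2 fold change of S100a4 was -0.09 with wells thinned to 400 UMIs. That of Ccl5 ranged from -0.07 to 0.47 over 17 alternatives. Ccr7 and Tcf7 were each lower in 4 of 5 mice. These sizes did not clear the spread between mice. In the lists that hold Id2, Ccl5 and S100a4, 4 of 16, 3 of 8 and 5 of 12 tested genes were above 0. Other genes of effector cells were split, with 6 of 12 granule genes above 0 and 6 below. With edgeR's quasi-likelihood test and mouse as a block, 0 of 4879 genes had an adjusted p under 0.05 (0% in either direction), and 185 passed at an unadjusted 0.05 (3.79%, of which 0.779% were higher and 3.01% lower). DESeq2 also called 0 genes, with 269 at an unadjusted p under 0.05. The smallest adjusted p of edgeR was 0.287. In simulated counts this test recovered 21% of genes changed by a log2 fold change of 1 and 69% of those changed by 2, with 4 false calls. Log2 fold changes above 0 were found for 36.9% of the genes, and their median was -0.22, so each list below is read against these 2 values. That median was -0.08 with relative log expression (RLE) scaling and 0.04 when other CD8 wells were matched to Cxcr6 CD8 wells on depth. With RLE scaling the medians of the residency, granule, chemokine and cytokine, MHC class I, interferon, S100 and cell cycle lists turned from just below 0 to between 0.03 and 0.15. Cxcr6 CD8 wells were deeper in 5 of 5 mice, with a pooled median of 2275 against 1786 UMIs, and the part of depth in the levels below was not tested beyond this matching and the thinning.

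Among transcription factors of CD8 differentiation, Id2 (chromosome 12, 25093799 to 25097140), an inhibitor of E proteins that supports effector cells, stood highest by counts. Its level was 2169, 1921, 2103, 2695 and 2708 CPM in Cxcr6 CD8 wells of TAT-CRE 207, 208, 215, PBS 216 and 218, against 1831, 1314, 1571, 1557 and 1145 CPM in the other CD8 wells. Every mouse was higher in its Cxcr6 CD8 wells, and the lowest of these (TAT-CRE 208) lay above the highest other value. The log2 fold change was 0.48 ± 0.19 (SE, edgeR unadjusted p = 0.0112, adjusted p = 1.00), and 0.60 without TAT-CRE 208. Id2 was counted in 63.0% of Cxcr6 CD8 wells and 47.0% of other CD8 wells, and in 31.5% and 20.2% after thinning. Tcf7 (chromosome 11, 52252371 to 52283014), which encodes the TCF1 protein of naive and memory T cells, gave 244, 83.5, 336, 556 and 545 CPM in Cxcr6 CD8 wells and 682, 404, 705, 446 and 925 CPM in the other CD8 wells. It was lower in 4 of 5 mice, with PBS 216 the exception. Its log2 fold change was -0.99 ± 0.34 (edgeR unadjusted p = 0.00388, adjusted p = 1.00), and -0.82 without TAT-CRE 208. Of the 16 tested genes of this list, 4 were above 0 and 12 below, with a median of -0.15. Eomes and Tbx21, T-box factors of effector CD8 cells, had log2 fold changes of -0.08 ± 0.69 and 0.56 ± 1.17.

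Genes of circulation and lymph node homing had a median of -0.80 over 14 tested genes, of which 11 were below 0, the lowest median of the 17 lists with this scaling. Ccr7, the receptor that guides cells into lymph nodes, was at 27.1, 0, 22.4, 0 and 232 CPM in Cxcr6 CD8 wells and at 91.5, 0, 107, 59.5 and 440.4 CPM in the other CD8 wells. It was lower in 4 of 5 mice and without a UMI in either class of TAT-CRE 208, where 0 of 11973 UMIs in Cxcr6 CD8 wells allows up to 251 CPM. Log2 fold changes of Ccr7 (-1.83 ± 0.96), Lef1, a partner of TCF1 (-1.23 ± 0.69), Satb1 (-1.44 ± 0.82), S1pr1, the receptor for exit into blood and lymph (-0.98 ± 0.74), and its regulator Klf2 (-0.62 ± 0.47) were all below 0, and none passed. Klrg1 (2.13 ± 1.43), Ly6c1 (0.32 ± 0.85) and Itgb7 (0.15 ± 0.56) were above 0. Ly6c2 and Tcf7 were the most abundant genes of this list. Without TAT-CRE 208 the list's median was -0.59, and with depth-matched wells -0.80.

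**Figure D3:**
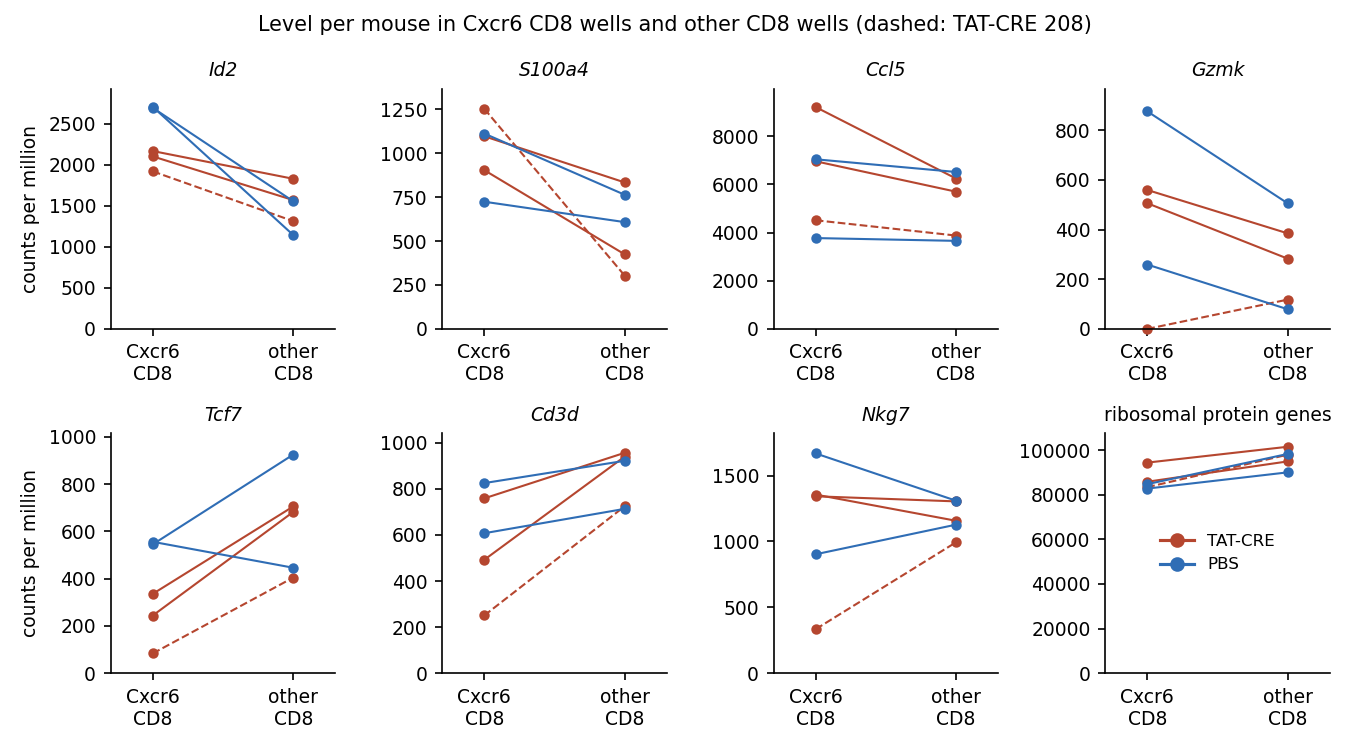
Level (vertical axes, CPM from 0) of 7 genes and of the summed ribosomal protein genes in Cxcr6 CD8 wells and other CD8 wells, joined by a line for each mouse (TAT-CRE red, PBS blue, TAT-CRE 208 dashed). Lines for Id2, S100a4 and Ccl5 are lower at the right in 5 of 5 mice, and lines for Cd3d and the ribosomal protein genes are higher there in 5 of 5.

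Residency genes did not stand out from the background. Of 10 tested genes 3 were above 0 and 7 below, with a median of -0.11. Rgs1, a regulator of chemokine receptor signalling that is high in tissue T cells, gave 768, 1002, 492, 927 and 125 CPM in Cxcr6 CD8 wells and 716, 590, 663, 456 and 176 CPM in the other CD8 wells. It was higher in 3 of 5 mice, and PBS 218 was lowest in both classes. Cd69, an early activation and residency marker, was lower in 4 of 5 mice (178 ± 140 CPM against 257 ± 64.2 CPM, SD, n = 5). Itgae, which encodes the CD103 integrin of epithelial resident cells, had 2 UMIs in all 219 wells and was not tested. Itga1, the CD49a integrin chain that binds collagen, was counted in 11.4% of Cxcr6 CD8 wells and 3.65% of other CD8 wells (5.48% and 2.19% after thinning), with a log2 fold change of 0.60 ± 0.74. In the list of integrins and adhesion genes, 5 of 13 were above 0 (median -0.15), and Itgal, the alpha chain of LFA-1, was higher in 5 of 5 mice (566 ± 200.3 CPM against 366 ± 111 CPM, log2 fold change 0.45 ± 0.34).

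Granule genes were described next, as they include 3 of the genes by which these cells were proposed, namely Gzmk, Nkg7 and Cst7. These 3 were tested with the rest, but they were chosen with results known, so their values are only a description. Gzmk (chromosome 13, 113171608 to 113225908, overlapping Esm1 on the other strand), a granzyme of effector memory cells, gave 506, 0, 559, 876 and 259 CPM in Cxcr6 CD8 wells and 283, 118, 385, 506 and 79.3 CPM in the other CD8 wells. It was higher in 4 of 5 mice, and the exception was TAT-CRE 208, where none of the 12 wells held a UMI. Wells with Gzmk made up 24.2% of Cxcr6 CD8 wells, 14.6% of other CD8 wells and 11.8% of wells with Cd4 and no Cd8 UMI, and after thinning 9.13% and 5.11% of the first 2 classes. Nkg7, a granule membrane protein of killer cells, gave 1355, 334, 1343, 1668 and 903 CPM against 1157, 994, 1304, 1309 and 1128 CPM. It was higher in 3 of 5 mice, and the sign of its log2 fold change turned from -0.26 ± 0.23 to 0.25 with depth-matched wells. Cst7, which encodes cystatin F, an inhibitor of the proteases that mature granzymes, gave 389, 334, 201, 135 and 250.2 CPM against 383, 101, 107, 178 and 467 CPM. It was higher in the 3 TAT-CRE mice and lower in both PBS mice. Of the 12 tested genes of the list, 6 were above 0 and 6 below, with a median of 0.00, and Prf1, the pore-forming perforin, had a log2 fold change of -0.48 ± 0.51.

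Ccl5 (chromosome 11, 83525778 to 83530518), a chemokine that memory and effector CD8 cells keep at high transcript levels, was the most abundant gene of the chemokine and cytokine list. Its level was 9208, 4510.2, 6959, 7041 and 3771 CPM in Cxcr6 CD8 wells and 6241, 3876, 5696, 6514 and 3656 CPM in the other CD8 wells, higher in 5 of 5 mice but by a small step in PBS 216 and PBS 218. The log2 fold change was 0.07 ± 0.13 and ranged from -0.07 to 0.47 over 17 alternatives, so its sign was not kept. CPM are scaled to total UMIs only, whereas the fold changes also carry edgeR's TMM scaling between libraries. Ccl5 was counted in 83.1% of Cxcr6 CD8 wells and 72.5% of other CD8 wells, and also in 48.2% of wells with Cd4 and no Cd8 UMI. Of 8 tested genes of the list 3 were above 0 (median -0.03), and Ccl4 was lower (-2.20 ± 0.94, edgeR unadjusted p = 0.021, adjusted p = 1.00), a difference in which PBS 216 had 714 CPM in its other CD8 wells. Ifng, Il2, Il10, Il17a, Il21, Csf2 and Cxcl16, the CXCR6 ligand, had no UMI in the 219 wells. A count of 0 of 219 allows up to 1.37% of such wells with a UMI, which limits detection at a median of 2275 UMIs per well and not the share of cells that express the gene. Among chemokine receptors, 3 of 5 were above 0 (median 0.03). Cxcr3, a receptor of type 1 effector cells, was counted in 22.4% against 10.9% of wells, but in 4.11% against 4.87% after thinning.

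Inhibitory receptor genes had a median of 0.42, with 7 of 10 tested genes above 0, the highest median of the 17 lists with this scaling, and none had an unadjusted p under 0.05. Tigit and Tox were its most abundant genes, with log2 fold changes of 0.22 ± 0.58 and -0.16 ± 0.65. Pdcd1, which encodes PD-1, had 0.93 ± 0.76, and Entpd1, which encodes the ectonucleotidase CD39, 1.61 ± 0.89. With depth-matched wells the list's median was 1.06. Receptors shared with NK cells were above 0 in 4 of 7 genes (median 0.31), among them the NKG2D gene Klrk1 at 0.77 ± 0.50.

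T cell receptor and CD3 genes were above 0 in 2 of 15 (median -0.22, that of all genes), and Cd3d was lower in 5 of 5 mice (-0.67 ± 0.27, edgeR unadjusted p = 0.0143, adjusted p = 1.00). Early response genes, which cells switch on within minutes of stimulation, were above 0 in 3 of 16 (median -0.53). Fos was lower in 4 of 5 mice (-1.42 ± 0.55, edgeR unadjusted p = 0.00995, adjusted p = 1.00). MHC class I and antigen processing genes were above 0 in 7 of 16 (median -0.09), with B2m, the light chain of MHC class I, at 7249 ± 882 CPM against 7015 ± 514 CPM (SD, n = 5). The log2 fold change of B2m was -0.15 ± 0.13, opposite in sign to its CPM. Type I interferon response genes were above 0 in 5 of 14 (median -0.09). Within that list Ifit2 was higher in 5 of 5 mice on 32 against 6 UMIs, and Zbp1 was lower in 4 of 5. The glucocorticoid receptor and its targets were above 0 in 1 of 6 (median -0.49), and Tsc22d3, a target also called GILZ, was at 386 ± 82.4 CPM against 477 ± 123 CPM. With depth-matched wells the median of this list was -0.04, close to the 0.04 of all genes. Without TAT-CRE 208 it was -0.17, beside -0.11 for all genes. In none of these lists did a gene pass.

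S100, annexin and migration genes were above 0 in 5 of 12 (median -0.11). S100a4 (chromosome 3, 90603771 to 90606045), a calcium-binding protein of motile effector cells, gave 904, 1253, 1096, 1112 and 724 CPM in Cxcr6 CD8 wells and 424, 303, 834, 763 and 608 CPM in the other CD8 wells. It was higher in 5 of 5 mice and the ranges overlapped. The log2 fold change of 0.63 ± 0.26 (edgeR unadjusted p = 0.016, adjusted p = 1.00) was -0.09 with wells thinned to 400 UMIs, and after thinning S100a4 was counted in 11.4% against 11.9% of wells. S100a6, of the same family, was higher in 5 of 5 mice too (1223 ± 393 CPM against 924 ± 252 CPM) and was counted in 21.5% against 15.8% of thinned wells. Capg, an actin-capping protein, was lower in 5 of 5 mice on 8 against 72 UMIs. Actin cytoskeleton genes were above 0 in 1 of 12 (median -0.33), with Actb in front by counts at -0.23 ± 0.11. Cell cycle genes were above 0 in 4 of 9 (median -0.05), and the proliferation marker Mki67 had 12 UMIs in Cxcr6 CD8 wells and 1 in other CD8 wells, over 4 wells and 1 well.

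**Figure D4:**
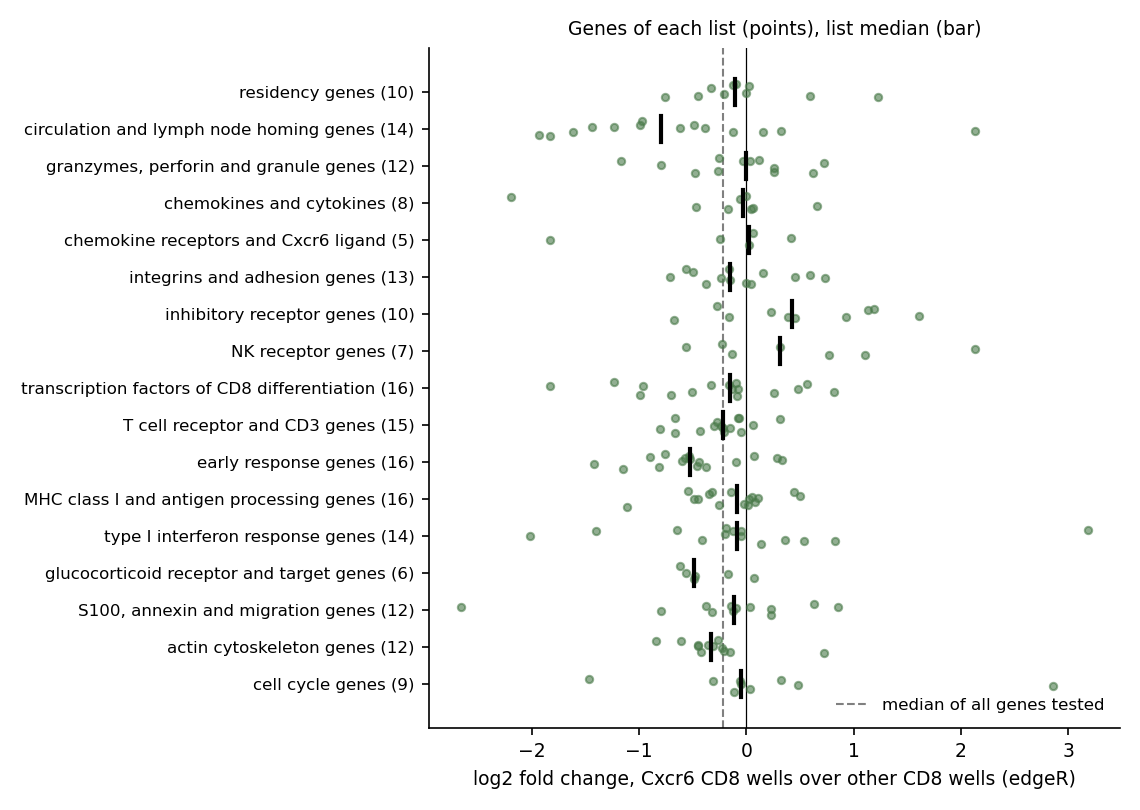
Log2 fold change of each tested gene (points, horizontal axis) in the 17 gene lists (vertical axis, number of genes in parentheses), Cxcr6 CD8 wells over other CD8 wells, with a bar at each list's median and a dashed line at -0.22, the median of all genes. The circulation list lies furthest to the left at -0.80 and the inhibitory receptor list furthest to the right at 0.42, and points of every list spread over both sides of the dashed line.

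The genes of smallest p were mostly outside the lists. Higher in Cxcr6 CD8 wells were Padi2, an enzyme that turns arginine into citrulline in proteins, with 61, 10, 29, 43 and 21 UMIs against 19, 1, 23, 33 and 19 in the same order of mice, and a log2 fold change of 1.44 ± 0.42 (edgeR adjusted p = 0.689). Hipk1, a nuclear kinase, had 42, 5, 27, 37 and 87 UMIs against 30, 12, 19, 24 and 24, at 1.15 ± 0.39. Levels of both were higher in 5 of 5 mice. The other 3, Mydgf, Ptpre and Rftn1, had fewer counts, as in Mydgf with 11, 3, 9, 3 and 15 against 0, 0, 0, 0 and 6 UMIs. Of the 5 lower genes, 3 encode ribosomal proteins. These were Rps20 (-0.69 ± 0.17, edgeR adjusted p = 0.287), Rpl4 (-0.54 ± 0.14, edgeR adjusted p = 0.287) and Rps24 (-0.46 ± 0.13, edgeR adjusted p = 0.456). The remaining ones were mt-Cytb, a mitochondrial subunit of complex III (-0.47 ± 0.13), and Ostf1 (-1.54 ± 0.45), with 16, 0, 4, 38 and 15 against 47, 28, 39, 50 and 54 UMIs.

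Ribosomal protein genes, a group chosen after these values were seen, had log2 fold changes below 0 in 64 of 72 tested genes, with a median of -0.33 beside -0.22 for all genes. With RLE scaling 58 of 72 were below 0 (median -0.19 beside -0.08), and against depth-matched wells 50 of 70 (median -0.11 beside 0.04). With wells thinned to 400 UMIs 38 of 54 were below 0, and the median of -0.11 was close to that of all genes, -0.09. Summed, they took 85864, 83438, 94449, 84784 and 82799 CPM in Cxcr6 CD8 wells and 94985, 98002, 101559, 98328 and 90076 CPM in the other CD8 wells. The sum was lower in the Cxcr6 CD8 wells of 5 of 5 mice (86267 ± 4726 CPM against 96590.1 ± 4322 CPM, SD, n = 5), though TAT-CRE 215 in the first class lay above PBS 218 in the second. It was lower in 5 of 5 mice against depth-matched wells too (99059 ± 7433 CPM). Cxcr6 wells without a Cd8 or Cd4 UMI, described below, were at 80990, 85494, 95882.5, 88814 and 88540 CPM, also below the other CD8 wells of each mouse. Against those wells 37 of 66 ribosomal protein genes were above 0, with a median of 0.02 beside 0.10 for all genes. The lower level was thus not particular to Cxcr6 CD8 wells. Many processed copies of these genes lie in the genome, and how reads were split among them is not given in the sources used here. One gene of the group, Rplp0 (-0.66 ± 0.21), passed edgeR's test when PBS 218 was left out (adjusted p = 0.0325, range over 17 alternatives 0.0325 to 1.00), and no gene of the comparison passed with any other library left out.

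A further 180 kept wells held Cxcr6 but no Cd8a, Cd8b1 or Cd4 UMI, and were compared with the Cxcr6 CD8 wells within mice. They numbered 28, 43, 28, 41 and 40, so that TAT-CRE 208 had more of these than Cxcr6 CD8 wells. With edgeR, 0 of 3658 genes passed (0%), 101 passed at an unadjusted 0.05 (2.76%, of which 1.86% were higher and 0.902% lower), and 55.4% of genes had a log2 fold change above 0 with a median of 0.10. DESeq2 called 0, with 203 at an unadjusted p under 0.05. In simulated counts edgeR's test recovered 22% of genes changed by a log2 fold change of 1 and 73% of those changed by 2. Ccl5 had the smallest p. Its level was 9208, 4510.2, 6959, 7041 and 3771 CPM in Cxcr6 CD8 wells and 3587, 4205, 3706, 5492 and 2831 CPM in the wells without a Cd8 UMI. It was higher in the Cxcr6 CD8 wells of each mouse, at 0.63 ± 0.17 (edgeR adjusted p = 0.556, range over the alternatives 0.0140 to 1.00). It passed with RLE scaling, with a minimum of 800 UMIs, and without TAT-CRE 208, where the log2 fold change was 0.82. Counted at most once per well it was 0.04.

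The granule list was above 0 in 9 of 11 genes in this comparison (median 0.69), with Gzmk counted in 24.2% against 8.33% of wells and Nkg7 in 56.2% against 31.7%. This list includes Gzmk, Nkg7 and Cst7, which were chosen with results known. Chemokine receptors were above 0 in 4 of 5 (median 0.72) and inhibitory receptors in 7 of 8 (median 0.82), while early response genes were above 0 in 3 of 15 (median -0.54). The pooled median depth was 2275 UMIs in Cxcr6 CD8 wells and 1577 in the wells without a Cd8 UMI. With wells thinned to 400 UMIs, Gzmk was counted in 9.13% against 6.11% of wells and Nkg7 in 22.8% against 15.6%, and the log2 fold change of Ccl5 was 0.67. That of Gzmk, 1.16 ± 0.58, ranged from 0.06 to 1.56 over 16 alternatives. After thinning, 7 granule genes were left to test (median 0.60), with 2 chemokine receptors (0.06) and 1 inhibitory receptor (0.72). Cd40lg, which encodes CD40 ligand, a helper T cell molecule, had 1 UMI in the 219 Cxcr6 CD8 wells and 29 in the 180 wells without a Cd8 UMI. Id2 did not set these classes apart (0.06 ± 0.22).

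Within Cxcr6 CD8 wells, TAT-CRE and PBS mice were compared at the level of the mouse. With edgeR, 0 of 3464 genes passed (0%), 106 passed at an unadjusted 0.05 (3.06%, of which 1.21% were higher and 1.85% lower in TAT-CRE mice), and 41.6% had a log2 fold change above 0 with a median of -0.17. DESeq2 called 0, with 79 at an unadjusted p under 0.05. In simulated counts edgeR's test recovered 7% of genes changed by a log2 fold change of 1 and 54% of those changed by 2. The gene of smallest p was Gzmb, granzyme B, a cytotoxic protease.

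Gzmb (chromosome 14, 56258838 to 56262260) was counted 68, 26 and 7 times in the Cxcr6 CD8 wells of TAT-CRE 207, 208 and 215, against 10 and 2 times in those of PBS 216 and 218. These are levels of 614, 2172 and 157 CPM in TAT-CRE mice and 168 and 17.9 CPM in PBS mice. TAT-CRE 215 lay below PBS 216, so the groups overlapped. The means were 981 ± 1056 CPM (SD, n = 3) and 93.2 ± 106 CPM (SD, n = 2), with a log2 fold change of 3.07 ± 0.74 (edgeR adjusted p = 0.114, range over 15 alternatives 0.0139 to 1.00). It passed with RLE scaling (3.14), without TAT-CRE 215 (3.63) and without PBS 216 (5.26), which leaves PBS 218 alone in its group, assumed to vary as the others did. Without TAT-CRE 208 it was 2.26 and did not pass. The transcripts were concentrated, as 26 of the 219 wells held Gzmb, at most 24 UMIs in a well, and 5 wells held 52.2% of its UMIs. The 26 UMIs of TAT-CRE 208, its 2172 CPM, came from 2 of its 12 wells. Those of TAT-CRE 215 came from 1 well and those of PBS 218 from 2 wells. Counted at most once per well, the log2 fold change was 1.81. In the other CD8 wells of the same mice Gzmb was at 250, 472 and 128 CPM in TAT-CRE and 178 and 396 CPM in PBS mice.

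**Figure D5:**
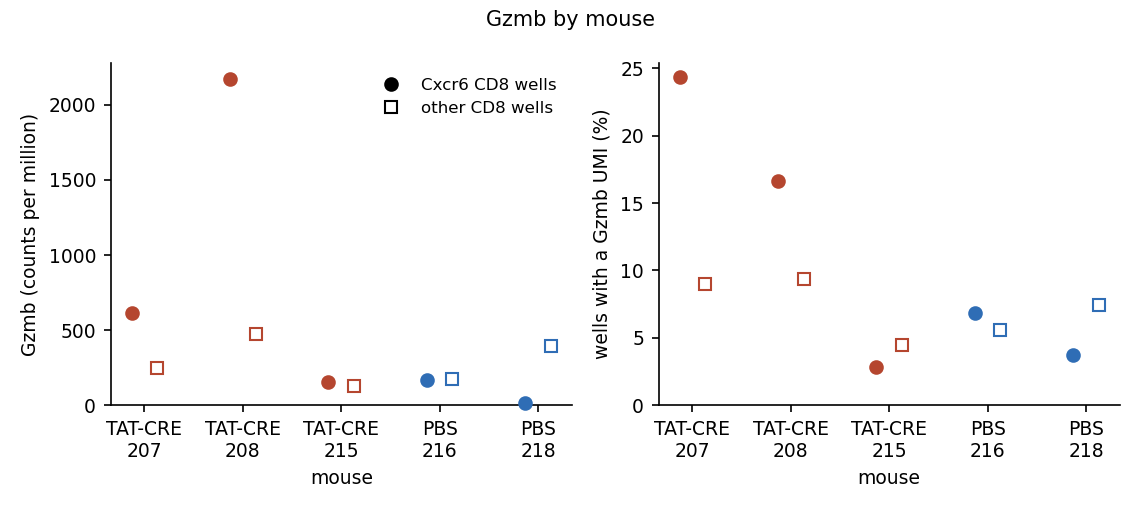
Gzmb level (left, CPM) and share of wells with a Gzmb UMI (right, percent) in each mouse, in Cxcr6 CD8 wells (filled circles) and other CD8 wells (open squares), TAT-CRE in red and PBS in blue. In Cxcr6 CD8 wells TAT-CRE 208 reaches 2172 CPM on 2 wells with a Gzmb UMI and PBS 218 lies at 17.9 CPM, while TAT-CRE 215 lies below PBS 216.

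The other genes of smallest p had few UMIs, and several were at 0 in a whole group. Kansl3, in the same order of mice, had 15, 21 and 0 UMIs against 1 and 2, and it passed without TAT-CRE 215. Jak2, a kinase of cytokine receptors, had 7, 0 and 22 UMIs against 0 and 0. Hikeshi had 0, 0 and 0 UMIs against 8 and 34, and Dhx15, an RNA helicase, 11, 0 and 0 against 37 and 43. In Kansl3 and Jak2, 1 of the 3 TAT-CRE mice was at 0. Of the lists, cell cycle genes were below 0 in 6 of 6 (median -1.36). With each gene counted at most once per well, 4 were tested (median -0.37), and after thinning no cell cycle gene was left to test. Summed over this list, levels were 777 to 1052 CPM in TAT-CRE mice, 2830 CPM in PBS 216 and 1519 CPM in PBS 218. The size thus rested in large part on PBS 216. Type I interferon response genes were above 0 in 8 of 12 (median 0.49). Within that list Ifi27l2a was higher and Ifi203 lower at an edgeR unadjusted p under 0.05. T cell receptor and CD3 genes were below 0 in 12 of 15. No member of these lists passed.

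Nr3c1, which encodes the glucocorticoid receptor floxed in these mice, had a level of 289, 0 and 22.4 CPM in the Cxcr6 CD8 wells of TAT-CRE 207, 208 and 215 and of 404 and 429 CPM in PBS 216 and 218. The groups did not overlap, and the 0 of TAT-CRE 208 allows up to 251 CPM. The log2 fold change of -1.66 ± 0.91 did not pass (edgeR unadjusted p = 0.0687, adjusted p = 1.00). In the other CD8 wells the levels were 374, 303 and 257 CPM in TAT-CRE and 347 and 159 CPM in PBS mice, and there they overlapped. Libraries of this kind count the 3' end of a transcript, and the labels do not say where the loxP sites lie, so these counts do not check the deletion.

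Whether the difference between Cxcr6 CD8 wells and other CD8 wells depended on the injection was tested as an interaction. Of 4879 genes 0 passed edgeR's test (0%), and 106 passed at an unadjusted 0.05 (2.17%, of which 0.738% were higher and 1.43% lower). DESeq2 called 0 genes as well. In simulated counts, edgeR's interaction test recovered 0% of genes changed by a log2 fold change of 1 or of 2. The count of 0 therefore does not show that no gene depended on the injection. Gzmb had the smallest p among the higher genes (3.05 ± 0.97, edgeR unadjusted p = 0.00167, adjusted p = 1), and the others were Rtn4, Chd2, Jak2 and Pafah1b3. The lower ones were Atrip, Samd3, Ythdf3, Mob1a (-2.60 ± 0.92) and Cep162.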

How the data were processed

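Single T cells were sorted into plates and made into massively parallel single-cell 3' libraries, per the labels' protocols. The deposited tables hold whole-number counts of UMIs per gene and well, not normalized. The submitters' processing notes name mm10 and bcl2fastq 2.15.0.4, while aligner, annotation and strand were not given in the sources used here. Positions are from GENCODE M21 (GRCm38), matched by gene name (15260 of 15952). No doublet caller was run, since each well was labelled as 1 sorted cell.

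The members and gene lists were chosen with earlier results of these data known. UMIs were summed per mouse and class, without control RNAs and 4 ribosomal RNA genes (Gm42418, Gm26917, mt-Rnr1, mt-Rnr2). Genes with at least 30 summed UMIs (20 between treatments) were tested with edgeR 4.0.16 (TMM, robust quasi-likelihood, Benjamini-Hochberg adjustment at 0.05) in R 4.3.3, with DESeq2 1.42.0 as an alternative, after a check on simulated counts. The simulated counts had the same spread for every gene (negative binomial dispersion 0.05) and no difference between mice, so recovery in the real counts can differ. The standard error is the log2 fold change over the root of F. Named were the 5 genes of smallest p per direction, the 2 most abundant genes of each list and Rgs1, Gzmk, Nkg7 and Cst7. Others were chosen after their values were seen. Some genes are not reported here.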

Additional observations from a re-analysis of the deposited data

Results flagged for a closer look

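Several genes differed from other CD8 wells in opposite directions in the groups, with every TAT-CRE mouse moving one way and both PBS mice the other. None passed the interaction test (edgeR adjusted p = 1 for each). Cst7 was higher in Cxcr6 CD8 wells of the 3 TAT-CRE mice and lower in those of both PBS mice (interaction log2 fold change 1.22 ± 1.11, unadjusted p = 0.272). Gzmb had the same pattern (3.05). Nr3c1 was lower in Cxcr6 CD8 wells of the TAT-CRE mice and higher in those of the PBS mice (-2.68 ± 1.12, unadjusted p = 0.0167). Dhx15 (-3.51), Samd3 (-5.58), Mob1a (-2.60), Hikeshi (-5.67) and Cep162 (-8.78) did so as well. These 5 and Gzmb were named because their p for treatment or interaction was small, so their direction is no separate support. The share of all tested genes with this pattern was not counted, so Cst7 and Nr3c1 are given as a description only. Hikeshi had no UMI in Cxcr6 CD8 wells of TAT-CRE mice and Cep162 none in other CD8 wells of PBS mice, so their fitted values depend on the prior count and are no bounds.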

How the results depend on the processing

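No gene passed in any of the 4 comparisons across genes, and most alternatives kept a count of 0. Leaving out 1 mouse gave 0 to 1 genes against other CD8 wells, 0 to 2 between treatments and 0 to 1 against Cxcr6 wells without Cd8 or Cd4, where the 1 was without TAT-CRE 208. RLE scaling gave 1 gene between treatments and 2 against Cxcr6 wells without Cd8 or Cd4. A minimum of 800 UMIs gave 1 in that comparison, and counting each gene at most once per well, an alternative chosen after seeing the data, gave 1 gene (Gm24362) between treatments. The interaction stayed at 0 in each alternative run, but its test also recovered 0% of changed genes in simulated counts. Hsp90ab1 against Cxcr6 wells without Cd8 or Cd4 turned from 0.68 to -0.0459 when counted once per well. The treatment difference in the share of kept wells ranged from -9.43 to 0.483 points with 1 mouse left out, and that in the share of CD8 wells from -16.8 to -3.47. The causes were not tested. No paired analysis was possible between treatments because the groups share no replicate number, and fits within mice with no replicate block called 0 genes. Of the values of single listed genes against other CD8 wells, 2880 moved by less than their standard error or kept their direction, and 166 moved by more. Depth limits these results, since TAT-CRE 208 gave 11973 UMIs from its 12 Cxcr6 CD8 wells, where 3 UMIs are 251 CPM.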

Other observations

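Cxcr6 CD8 wells also differed among themselves. The 65 wells with 1 Cxcr6 UMI and the 154 with 2 or more are set side by side here with no test, since the same counts chose the wells. Tcf7 was counted in 29.2% of the first and 18.8% of the second, and its level was lower in wells with 2 or more Cxcr6 UMIs in 5 of 5 mice, for example at 183 against 476 CPM in TAT-CRE 207. Gzmb, Itga1 and Cst7 were higher in wells with 2 or more in 5 of 5 mice, but on few wells. Among wells with 1 Cxcr6 UMI, Gzmb was counted in 2, 0, 0, 1 and 0 wells of TAT-CRE 207, 208, 215, PBS 216 and 218. Itga1 was counted in 2, 0, 0, 1 and 1 of them, and Cst7 in 2, 0, 0, 1 and 2. Gzmk was higher in wells with 2 or more in 3 mice and lower in 1, and Nkg7, Id2 and Ccl5 were each higher in 3 and lower in 2. Pdcd1 was counted in 15.4% of wells with 1 Cxcr6 UMI and in 8.44% of those with 2 or more. The median depth of these classes was 2136 and 2372 UMIs. With wells thinned to 400 UMIs the shares of the first and second class kept these directions, at 10.8% and 5.84% for Tcf7, 3.08% and 9.09% for Gzmb, 1.54% and 7.14% for Itga1 and 1.54% and 5.19% for Cst7.

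Of the 219 wells, 53 held Gzmk and 26 held Gzmb, and 12 held both. Gzmb was thus counted in 22.6% of wells with Gzmk and in 8.43% of wells without it, which had a median of 2716 and 2181.5 UMIs, and this difference was not tested. Ccl5 was counted in 49 of the 53 Gzmk wells and in 41 of the 48 Tcf7 wells, and 2 of the 26 Gzmb wells held Tcf7. Tox and Pdcd1 were counted together in 8 wells.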
